A study of Saccharomyces cerevisiae with 4 samples.

Results

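The genes described here are the nuclear protein-coding genes of baker's yeast that span 5000 bp or more. They were taken by their listed start and end from the deposited table of all genes, and 110 of 5899 nuclear mRNA rows (1.865%) met this length. Of these, 66 are single genes of 5040 to 14733 bp with a median of 6100.5 bp, all with 1 coding part, 40 are gag-pol rows of Ty retrotransposons of 5251 to 5410 bp, and 4 are helicase rows of the subtelomeric Y' elements. The other 5789 nuclear mRNA rows had a median length of 1158 bp. Start and end of all 110 long rows were the same in the R64 annotation, to which all coordinates below refer.

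RNA was analysed from 2 BY4741 cultures that had received thiolutin at 3 µg/mL during 3 h and from 2 untreated BY4741 cultures. BY4741 is a haploid laboratory strain of genotype MATa his3 leu2 met15 ura3, and all 4 cultures carried these alleles and grew in YPD at 28 °C. The submitters' labels place the cells in exponential growth and call the samples biological replicates, whereas the methods of the study take cells from overnight cultures. The design text gives 3 replicates per condition, of which 2 were analysed here, from libraries of poly(A)-selected RNA read from both ends. Thiolutin is a dithiolopyrrolone antibiotic that inhibits RNA polymerases and binds zinc.

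A long gene takes longer to transcribe than a short one, and a polymerase that stops within the gene leaves no complete message. Many of the longest yeast genes encode single giant polypeptides: scaffolds, multi-domain enzymes, motor proteins, checkpoint kinases and the assembly factors of ribosomes. Ty elements are copied through an RNA that spans nearly the whole element, and their gag-pol reading frame is read by a programmed frameshift of the ribosome.

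Gene counts summed to 17038991 and 21440741 reads in the thiolutin libraries and to 30205335 and 29962621 in the untreated libraries. The raw counts went into edgeR's quasi-likelihood test with library sizes scaled by TMM, a method that leaves out genes with extreme values. The TMM factors were 0.813 and 0.817 for thiolutin and 1.22 and 1.23 for untreated libraries. Normalized counts are reads divided by these scaled library sizes, brought to the mean library, and log2 fold changes are thiolutin over untreated. With total counts as the scale the median of all genes lay 0.59 lower on the log2 scale than with TMM, so all changes below are relative to the bulk of genes. In bulk RNA without an added standard, a uniform loss of RNA per cell and fewer cells cannot be told apart from no change.

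Calls were made at 0.05 on p-values adjusted by Benjamini and Hochberg's method over all 5937 genes tested. Of all genes tested 31.2% were called higher and 32.4% lower in thiolutin cells, 63.6% in either direction, and in 84.6% the normalized counts of the 2 groups did not overlap. Of the 110 long rows 109 were tested, since 1 Y' helicase row, YRF1-5, had too few reads. Among them 52 (47.7%) were called higher, 13 (11.9%) lower and 44 were not called, and in 88 (80.7%) the groups did not overlap. The median log2 fold change was 0.35 over the long rows and -0.06 over the 5699 other nuclear mRNA rows tested, of which 1736 were called higher and 1895 lower. A share of 11.9% called lower stands beside the 32.4% of all genes.

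Of the 52 increases 30 were in retrotransposon rows. Of the 40 transposon rows 30 were called higher and 1 lower, with a median log2 fold change of 1.34. Of the 66 single genes 22 (33.3%) were called higher and 11 (16.7%) lower, with a median of 0.15 and a range of -1.18 to 1.94, so their share of increases lay near that of all genes and their share of decreases below it. The groups did not overlap in 48 of the single genes (72.7%) and in 38 transposon rows (95.0%), beside 84.6% of all genes tested. With total counts as the scale 9 of the 66 single genes were called higher and 39 lower, and 25 of the 40 transposon rows higher and 5 lower. On that scale the median log2 fold change was -0.63 over all genes and -0.65 over the other nuclear mRNA rows, against -0.44 over the 66 single genes. Calls with total counts, here and below, stand beside this general shift, and the share of all genes called on that scale is not given here. Roles and lists of genes below are therefore given with their calls under both scales, TMM first. Under that scale 7 of the 22 single genes called higher, namely LAA1, MEC1, PRP8, RIM15, SNF2, SPO14 and TEL1, had a log2 fold change below 0, while none of the 11 single genes called lower and none of the 31 changed transposon rows changed sign.

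**Figure D1:**
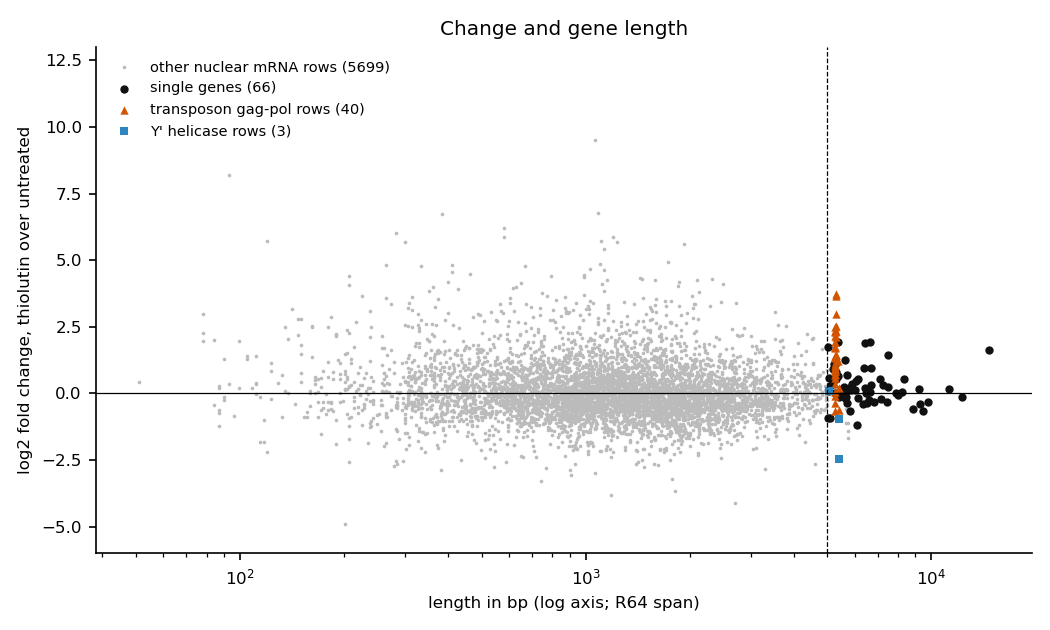
Log2 fold change of thiolutin over untreated cells (vertical axis) against gene length in bp by the R64 span on a log axis, 1 point per nuclear mRNA row tested. The 66 single genes right of the dashed line at 5000 bp lie between -1.18 and 1.94, and the transposon rows reach 3.74; the 5 grey points beyond the line are rows that R64 spans at 5 kb or more but that the table lists shorter.

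The untreated libraries differed from each other with gene length. In untreated replicate 1 the normalized count was below that of untreated replicate 2 in 62 of the 66 single long genes, with a median log2 ratio of -0.27, against 2777 of the 5699 other nuclear mRNA rows (48.7%) and a median of 0.01. This ratio had a median of 0.23 in genes under 500 bp, -0.14 in genes of 2000 to 2999 bp and -0.35 in the 30 long genes under 6000 bp. Within the thiolutin pair the median for the 66 long genes was -0.04.

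Between the groups, the median log2 fold change of single genes was 0.08 under 500 bp and -0.13 from 2000 to 2999 bp. It was -0.01 in the 118 genes of 4000 to 4999 bp, 0.18 in the 30 long genes under 6000 bp and 0.06 in the 36 of 6000 bp or more. The mean of the thiolutin libraries lay at a median log2 ratio of 0.30 over untreated replicate 1 and of 0.015 over untreated replicate 2 in the 66 long genes. Without untreated replicate 2 the fit gave them a median log2 fold change of 0.31, and without untreated replicate 1 one of 0.02. Without thiolutin replicate 1 the median was 0.13, and without thiolutin replicate 2 it was 0.16. In such fits the lone library of a group is assumed to vary like the pair of the other group. The median change of the single long genes as a set therefore lay within the spread of the untreated pair, and what follows is about named genes.

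**Figure D2:**
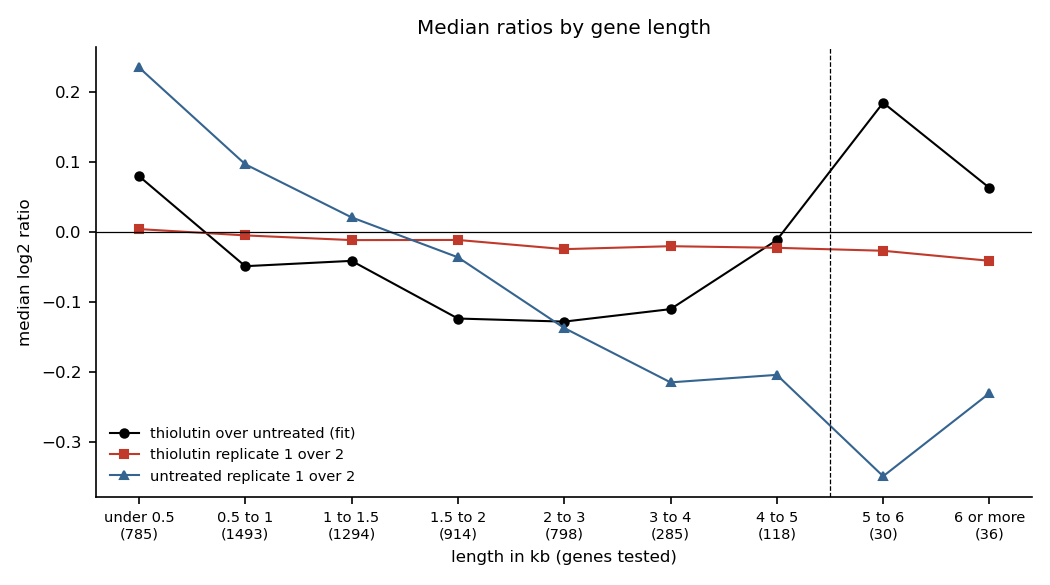
Median log2 ratio of single nuclear genes by length, with the number of genes tested under each length class; black circles are thiolutin over untreated from the fit, red squares thiolutin replicate 1 over 2, blue triangles untreated replicate 1 over 2. The blue line runs from 0.23 in the shortest class to -0.35 in genes of 5 to 6 kb, a range larger than that of the black line.

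The 5 long genes of ribosome assembly all rose. Cells build ribosomes in the nucleolus, where the small subunit processome forms on the pre-rRNA and remodelling enzymes later drive the large subunit towards export. REA1, at 14733 bp the longest of the 110 rows (chrXII:349006-363738, minus strand), encodes the AAA ATPase that strips assembly factors from large subunit precursors. It had 20269 and 20754 normalized counts in the thiolutin libraries and 5517 and 7558 in the untreated libraries. The groups did not overlap, and its log2 fold change was 1.65 (SE 0.17, adjusted p 0.00112, edgeR).

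UTP20 (chrII:227636-235117, plus strand), a small subunit processome protein, had 4473 and 4480 normalized counts in thiolutin cells and 1338 and 1995 in untreated cells. UTP10 (chrX:212000-217309, minus strand), of the same particle, had 3930 and 3964 in thiolutin cells and 1423 and 2193 in untreated cells. The thiolutin libraries nearly coincided for both genes while the untreated ones were apart, and the log2 fold changes were 1.43 (SE 0.20, edgeR adjusted p 0.00287) and 1.13 (SE 0.21, edgeR adjusted p 0.00772). RRP5 (chrXIII:725934-731123, minus strand), needed for the processing of both small and large subunit RNA, had 4911 and 5148 normalized counts in thiolutin cells and 2013 and 3289 in untreated cells. Its log2 fold change was 0.92 (SE 0.24, edgeR adjusted p 0.0218). URB1 (chrXI:411619-416913, minus strand), a large subunit assembly factor, had 2475 and 2611 in thiolutin cells and 1120 and 1823 in untreated cells, a log2 fold change of 0.79 (SE 0.24, edgeR adjusted p 0.0343).

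In none of these 5 genes did the groups overlap, as was so for 84.6% of all genes tested. All 5 stayed above 0 with total counts as the scale, where their median was 0.54 and 2 of 5 were called higher. RRP5 and URB1 lost their calls without either thiolutin library, with edgeR adjusted p of 0.0675 and 0.0783 for RRP5 and 0.085 and 0.107 for URB1. The calls of shorter genes of the same machines depended on the scale. Of 45 other genes of the small subunit processome 27 were called higher and 2 lower, with a median of 0.67, and of 30 other large subunit assembly genes 21 were called higher and none lower, with a median of 0.71. With total counts as the scale 13 processome genes were called higher and 11 lower, with a median of 0.08, and 6 large subunit assembly genes higher and 2 lower, with a median of 0.12. The largest increases there were those of ECM16, a helicase of the processome, with a log2 fold change of 2.51 (SE 0.22, edgeR adjusted p 0.000703), and of NOP8, a large subunit assembly factor, with 1.97 (SE 0.12, edgeR adjusted p 0.000299).

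The promoters of these genes share 2 short elements that are known to be common before ribosome assembly genes, the PAC core GATGAG and the RRPE core AAATTTT. Both were searched on both strands from 250 bases before to 50 bases after the start codon of 5624 nuclear genes. A further 5 elements searched likewise, STRE (AGGGG), PACE (GGTGGCAAA), the Gcn4 element (TGACTC), MCB (ACGCGT) and the heat shock core (TTCNNGAA), were in none of the 5 ribosome assembly windows, in 13, 1, 4, 3 and 6 of the 66 single long gene windows and in 21.8%, 1.23%, 8.21%, 3.17% and 12.9% of all windows. PAC was in 20.3%, RRPE in 23.4% and both in 8.02% of these windows. All 5 long ribosome assembly genes had both, as did 2 of the other 61 single long genes. Both were also in 38 of the 45 small subunit processome promoters and in 25 of the 29 large subunit assembly promoters searched. AAAATTTT holds the RRPE core once on each strand, and so counts as 2 overlapping matches. The windows of the 4 genes with the larger changes, chosen after the matches were counted, are shown from 5′ to 3′ on the coding strand, with both elements in capitals, as REA1 (chrXII:363689-363988), UTP20 (chrII:227386-227685), UTP10 (chrX:217260-217559) and RRP5 (chrXIII:731074-731373), all read from R64.
REA1: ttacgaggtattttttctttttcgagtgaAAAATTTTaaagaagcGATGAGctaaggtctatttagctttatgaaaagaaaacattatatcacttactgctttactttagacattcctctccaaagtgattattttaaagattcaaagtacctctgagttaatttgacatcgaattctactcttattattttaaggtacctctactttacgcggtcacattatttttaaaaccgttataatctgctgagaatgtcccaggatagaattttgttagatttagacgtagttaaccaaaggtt
UTP20: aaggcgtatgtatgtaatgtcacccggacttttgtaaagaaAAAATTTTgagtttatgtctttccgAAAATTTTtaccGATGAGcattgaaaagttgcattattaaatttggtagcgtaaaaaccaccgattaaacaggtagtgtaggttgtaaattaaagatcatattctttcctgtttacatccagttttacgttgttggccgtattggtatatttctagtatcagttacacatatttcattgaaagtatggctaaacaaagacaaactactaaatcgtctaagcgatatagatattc
UTP10: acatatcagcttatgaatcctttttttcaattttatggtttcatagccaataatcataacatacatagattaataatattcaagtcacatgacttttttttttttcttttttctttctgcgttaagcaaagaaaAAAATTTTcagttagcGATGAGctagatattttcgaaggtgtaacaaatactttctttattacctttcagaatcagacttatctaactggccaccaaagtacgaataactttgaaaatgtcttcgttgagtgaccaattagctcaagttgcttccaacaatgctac
RRP5: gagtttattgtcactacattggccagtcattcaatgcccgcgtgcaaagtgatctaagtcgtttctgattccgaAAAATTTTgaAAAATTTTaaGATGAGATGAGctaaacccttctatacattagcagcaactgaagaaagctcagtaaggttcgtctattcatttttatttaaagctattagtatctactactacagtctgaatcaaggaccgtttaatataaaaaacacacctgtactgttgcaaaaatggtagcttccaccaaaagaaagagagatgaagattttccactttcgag

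In REA1 the PAC core ended 200 bases and in UTP10 95 bases before the start codon, with the RRPE core upstream of it in each. In UTP20 the RRPE core occurred at 2 places before the PAC core, and in RRP5 2 PAC cores overlapped by 1 base. A match of letters describes the window only, and binding was not measured.

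Among the enzymes of nitrogen and nucleotide synthesis, URA2 and GLT1 rose by a similar amount and DUR12 was not called. URA2 (chrX:165723-172367, minus strand) encodes the fused carbamoyl phosphate synthetase and aspartate transcarbamylase that start pyrimidine synthesis. It had 21731 and 22474 normalized counts in thiolutin cells and 5117 and 6600 in untreated cells, a log2 fold change of 1.92 (SE 0.15, edgeR adjusted p 0.00052). GLT1 (chrIV:149203-155640, minus strand) encodes glutamate synthase, which makes glutamate from glutamine and oxoglutarate, and had 11830 and 12156 in thiolutin cells and 2889 and 3498 in untreated cells. Its log2 fold change was 1.91 (SE 0.13, edgeR adjusted p 0.000353), and neither gene's groups overlapped. DUR12, the urea amidolyase gene (also written DUR1,2), had a log2 fold change of 0.17 (SE 0.08, edgeR adjusted p 0.141).

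URA2 and GLT1 stayed called higher with total counts (1.33 and 1.32), where DUR12 was called lower (-0.42, edgeR adjusted p 0.00716). The shorter genes of both pathways went both ways. Of 7 other pyrimidine synthesis genes 2 were called higher and 1 lower, with a median of -0.29, led by URA8, a CTP synthase gene, at 0.89 (SE 0.12, edgeR adjusted p 0.00248). URA10, an orotate phosphoribosyltransferase gene, had -0.74 (SE 0.23, edgeR adjusted p 0.0381). None of the 7 was called higher and 5 were called lower with total counts. BY4741 lacks URA3 function by its genotype. Of 11 other genes of ammonia assimilation and urea use 4 were called higher and 3 lower, with a median of 0.08, against 2 higher, 4 lower and a median of -0.50 with total counts. GLN1, which encodes glutamine synthetase, the enzyme that feeds GLT1, fell by 1.31 on the log2 scale (SE 0.10, edgeR adjusted p 0.00047), and DAL7, a malate synthase gene of allantoin use, had a log2 fold change of 1.502 (SE 0.18, edgeR adjusted p 0.00165).

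At the nuclear pore, both long genes of the nuclear basket rose. MLP1 and MLP2 encode paralogous coiled-coil filaments that line the inner face of the pore and act in mRNA surveillance. MLP2 (chrIX:63028-68067, minus strand) had 11948 and 12774 normalized counts in thiolutin cells and 3365 and 4008 in untreated cells, a log2 fold change of 1.75 (SE 0.12, edgeR adjusted p 0.000415). MLP1 (chrXI:619805-625432, plus strand) had 12665 and 13281 in thiolutin cells and 4815 and 6162 in untreated cells, a log2 fold change of 1.24 (SE 0.15, edgeR adjusted p 0.00155). Per length, MLP2 stood at 1.05 and 1.07 times MLP1 in thiolutin cells and at 0.78 and 0.73 times MLP1 in untreated cells. NUP192, an inner ring scaffold, overlapped between the groups, with a log2 fold change of 0.11 (SE 0.14, edgeR adjusted p 0.544). MLP2 and MLP1 stayed called higher with total counts (1.16 and 0.65), and NUP192 was called lower (-0.48, edgeR adjusted p 0.0278). Of 26 shorter pore genes 1 was called higher and 8 lower, with a median of -0.25, against none higher, 24 lower and a median of -0.84 with total counts. In the TMM fit NUP82 and NUP49 fell by 0.68 and 0.62 on the log2 scale (SE 0.12 and 0.11, edgeR adjusted p 0.00668 and 0.00565).

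Lipid and glucan synthesis is served by 7 long genes, of which 4 were called higher and none lower, against 1 higher (HFA1) and 3 lower (FAS1, FAS2 and FKS1) with total counts as the scale. ACC1 encodes the cytosolic acetyl-CoA carboxylase, the entry step of fatty acid synthesis, and HFA1 its mitochondrial counterpart. ACC1 (chrXIV:654673-661374, minus strand) had 13796 and 14259 normalized counts in thiolutin cells and 5799 and 8487 in untreated cells, a log2 fold change of 0.97 (SE 0.20, edgeR adjusted p 0.0092). HFA1 had 2146 and 2252 in thiolutin cells and 1083 and 1197 in untreated cells, a log2 fold change of 0.95 (SE 0.09, edgeR adjusted p 0.000958). The carboxylases thus moved by nearly the same amount, although the call of ACC1 was lost without thiolutin replicate 2 (edgeR adjusted p 0.0533) and with total counts as the scale (0.38, edgeR adjusted p 0.126).

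FAS1 and FAS2, the beta and alpha subunits of fatty acid synthase, which elongates from the product of ACC1, were not called with TMM and were called lower with total counts (-0.75 and -0.70, edgeR adjusted p 0.013 and 0.0121). FAS1 had 10779 and 10830 normalized counts in thiolutin cells and 10012 and 14194 in untreated cells, a log2 fold change of -0.16 (SE 0.18, edgeR adjusted p 0.459). FAS2 had 15580 and 15246 in thiolutin cells and 14145 and 19209 in untreated cells, a log2 fold change of -0.11 (SE 0.16, edgeR adjusted p 0.569). In both, the thiolutin libraries lay between the untreated ones. Per length, FAS1 stood at 0.637 and 0.654 times FAS2 in thiolutin cells and at 0.651 and 0.68 times FAS2 in untreated cells. Without untreated replicate 1 the change was -0.38 for FAS1 and -0.31 for FAS2, and without untreated replicate 2 it was 0.11 and 0.13. Of 12 shorter genes of fatty acid synthesis and elongation none was called higher and 9 were called lower, with a median of -0.80, while all 12 were called lower with total counts. The largest changes with TMM were those of BPL1, which encodes the ligase that puts biotin on ACC1, at -1.24 (SE 0.16, edgeR adjusted p 0.00226), and ELO1, an elongase gene, at -0.96 (SE 0.15, edgeR adjusted p 0.00424).

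FKS1, GSC2 and FKS3 encode a family of plasma membrane glucan synthase proteins, of which FKS1 is the main form in growing cells and GSC2 the form used under stress and in sporulation. FKS1 had 11263 and 11730 normalized counts in thiolutin cells and 10493 and 15338 in untreated cells, a log2 fold change of -0.17 (SE 0.19, edgeR adjusted p 0.478), and was called lower with total counts (-0.76, edgeR adjusted p 0.0164). GSC2 had 5323 and 5298 in thiolutin cells and 3402 and 3133 in untreated cells, a log2 fold change of 0.70 (SE 0.09, edgeR adjusted p 0.00232). FKS3 had 769 and 837 in thiolutin cells and 499 and 522 in untreated cells, a log2 fold change of 0.65 (SE 0.11, edgeR adjusted p 0.00486). Only FKS1 overlapped between the groups among these 3 genes. Per length, GSC2 was at 0.468 and 0.447 times FKS1 in thiolutin cells and at 0.321 and 0.202 times FKS1 in untreated cells.

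With 2 libraries per group an exact permutation test of such a ratio cannot go below a two-sided p of 0.333, the value reached here for 6 of 10 paralog or subunit ratios compared (adjusted p 0.556 over the 10). The calls of GSC2 and FKS3 were lost without 1 thiolutin library, replicate 1 for GSC2 (edgeR adjusted p 0.0506) and replicate 2 for FKS3 (edgeR adjusted p 0.074), and both ended near 0 with total counts as the scale, GSC2 at 0.11 (edgeR adjusted p 0.321) and FKS3 at 0.06 (edgeR adjusted p 0.618). Of 16 shorter genes of glucan synthesis and the cell wall 1 was called higher and 7 lower, with a median of -0.32, against none higher, 14 lower and a median of -0.91 with total counts. The list was led by GAS5 and GAS3, glucan-remodelling enzymes, at -1.58 and -1.16 (SE 0.13 and 0.09, edgeR adjusted p 0.00054 and 0.000461).

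In membrane traffic the 6 long genes went both ways, 2 higher and 2 lower with TMM and 1 (USO1) higher and 4 lower with total counts. USO1 (chrIV:345665-351037, plus strand), the coiled-coil tether that captures vesicles from the endoplasmic reticulum at the Golgi, had the largest increase of all single long genes. It had 10608 and 10958 normalized counts in thiolutin cells and 2461 and 3159 in untreated cells, a log2 fold change of 1.94 (SE 0.15, edgeR adjusted p 0.000484). DOP1 (chrIV:734901-739997, minus strand), a large protein of endosome to Golgi transport, had 1873 and 1776 in thiolutin cells and 3051 and 3923 in untreated cells. DOP1 fell by 0.93 on the log2 scale (SE 0.14, edgeR adjusted p 0.0039).

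SEC7, the exchange factor for Arf at the Golgi, had 6972 and 6848 normalized counts in thiolutin cells and 5614 and 6913 in untreated cells. The groups overlapped, and the log2 fold change was 0.14 (SE 0.13, edgeR adjusted p 0.372). LAA1, which works with the AP-1 clathrin adaptor, had a log2 fold change of 0.47 (SE 0.14, edgeR adjusted p 0.033), and BPH1, a BEACH domain protein, one of -0.35 (SE 0.09, edgeR adjusted p 0.0216). Both calls were lost without either thiolutin library, with edgeR adjusted p of 0.112 and 0.224 for LAA1 and 0.216 and 0.186 for BPH1, and SEC16, the scaffold of COPII exit sites, was not called (-0.26, SE 0.13). Of 20 shorter genes of Golgi traffic 6 were called higher and 3 lower, with a median of 0.09, against 2 higher, 14 lower and a median of -0.49 with total counts. IMH1, another coiled-coil golgin, had the largest change, a log2 fold change of 2.19 (SE 0.12, edgeR adjusted p 0.00021).

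The lipid transfer bridges are rod-shaped proteins that carry lipids between membranes at contact sites, and of their 4 genes VPS13 and CSF1 fell, while all 4 were called lower with total counts as the scale. VPS13 (chrXII:54211-63645, minus strand) had 4640 and 5043 normalized counts in thiolutin cells and 7829 and 7560 in untreated cells, a decrease of 0.67 on the log2 scale (log2 fold change -0.67, SE 0.10, edgeR adjusted p 0.00301). CSF1 had 1142 and 1106 in thiolutin cells and 1595 and 1758 in untreated cells, a log2 fold change of -0.58 (SE 0.09, edgeR adjusted p 0.00463). Both lost the call without either thiolutin library, with edgeR adjusted p of 0.0888 and 0.0583 for VPS13 and 0.062 and 0.0773 for CSF1.

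The paralogs FMP27 and HOB2 (YPR117W) were not called. FMP27 had 4319 and 4525 normalized counts in thiolutin cells and 4154 and 4563 in untreated cells, a log2 fold change of 0.02 (SE 0.10, edgeR adjusted p 0.861). HOB2 had 3169 and 3154 in thiolutin cells and 2604 and 2728 in untreated cells, a log2 fold change of 0.25 (SE 0.09, edgeR adjusted p 0.0531). Per length, VPS13 stood at 1.16 and 1.27 times HOB2 in thiolutin cells and at 2.38 and 2.19 times HOB2 in untreated cells, without overlap.

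Of the phospholipase genes, NTE1 fell and SPO14 rose. NTE1 (chrXIII:153219-158258, minus strand), a phosphatidylcholine hydrolase of the endoplasmic reticulum, had 994 and 1163 normalized counts in thiolutin cells and 2006 and 2065 in untreated cells, a log2 fold change of -0.91 (SE 0.11, edgeR adjusted p 0.00152). SPO14, phospholipase D, had 3501 and 3707 in thiolutin cells and 2301 and 2574 in untreated cells, a log2 fold change of 0.56 (SE 0.10, edgeR adjusted p 0.0063). SPO14 stood at -0.02 with total counts as the scale and lost its call without either thiolutin library (edgeR adjusted p 0.0681 and 0.0965).

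In the Ras and cAMP pathway, which couples glucose to growth through protein kinase A, adenylate cyclase had the largest decrease of all single long genes. CYR1 (chrX:425157-431237, plus strand), the adenylate cyclase gene, had 2402 and 2471 normalized counts in thiolutin cells and 5605 and 5452 in untreated cells, a log2 fold change of -1.18 (SE 0.09, edgeR adjusted p 0.000461). IRA1 and IRA2 encode the paralogous proteins that switch Ras off. IRA1 had 3173 and 3304 in thiolutin cells and 4028 and 4461 in untreated cells, a log2 fold change of -0.39 (SE 0.10, edgeR adjusted p 0.0196).

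IRA2 had 8048 and 7911 normalized counts in thiolutin cells and 6740 and 7378 in untreated cells, a log2 fold change of 0.18 (SE 0.10, edgeR adjusted p 0.162). IRA2 was called lower with total counts (-0.41, edgeR adjusted p 0.0133). Per length, IRA1 stood at 0.393 and 0.416 times IRA2 in thiolutin cells and at 0.595 and 0.602 times IRA2 in untreated cells, without overlap. The call of IRA1 was lost without either thiolutin library (edgeR adjusted p 0.241 and 0.189), while that of CYR1 held in every fit run. Of 13 shorter Ras and protein kinase A genes 4 were called higher and 6 lower, with a median of -0.26, against 2 higher, 9 lower and a median of -0.85 with total counts. TFS1, an inhibitor of carboxypeptidase Y that also binds IRA2, had a log2 fold change of -2.40 (SE 0.27, edgeR adjusted p 0.00132).

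Among 6 long genes of the PI3K-related and lipid kinases, MEC1 and TEL1, the sensor kinases of DNA damage, were called higher, and TOR2 and STT4 were called lower, against none higher and 4 lower with total counts. TEL1 had 2962 and 3148 normalized counts in thiolutin cells and 1939 and 2258 in untreated cells, a log2 fold change of 0.54 (SE 0.11, edgeR adjusted p 0.00994). MEC1 had 1300 and 1488 in thiolutin cells and 888 and 1035 in untreated cells, also a log2 fold change of 0.54 (SE 0.13, edgeR adjusted p 0.0158). With total counts as the scale both stood at -0.05, and both calls were lost without either thiolutin library (edgeR adjusted p 0.06 to 0.15). Per length, TEL1 stood at 1.94 and 1.80 times MEC1 in thiolutin cells and at 1.85 and 1.85 times MEC1 in untreated cells, so the ratio overlapped.

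TOR2, the kinase of TOR complex 2, had 2410 and 2420 normalized counts in thiolutin cells and 2802 and 3221 in untreated cells, a log2 fold change of -0.32 (SE 0.10, edgeR adjusted p 0.0448). STT4, a phosphatidylinositol kinase of the plasma membrane, had a log2 fold change of -0.37 (SE 0.12, edgeR adjusted p 0.04). Neither call held with the size factors of DESeq2 (edgeR adjusted p 0.0624 for TOR2 and 0.0542 for STT4) or without either thiolutin library (0.287 and 0.288 for TOR2, 0.222 and 0.23 for STT4). TRA1, the subunit of SAGA and NuA4 that contacts activators, had 4587 and 4662 in thiolutin cells and 3987 and 4346 in untreated cells, a log2 fold change of 0.15 (SE 0.09, edgeR adjusted p 0.212), and FAB1, a vacuolar lipid kinase, was not called (-0.32, SE 0.11).

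For the shorter partners of these kinases the balance of increases and decreases differed between lists. Of 12 TORC2 genes 2 were called higher and 7 lower (median -0.39), against 1 and 11 with total counts (median -0.97). Of 10 phosphoinositide kinase genes none was higher and 4 were lower (median -0.40), against none and 10 with total counts (median -0.99). Of 13 DNA damage checkpoint genes 3 were higher and 5 lower (median -0.11), against none and 9 with total counts (median -0.70). Of 29 SAGA and NuA4 genes 14 were called higher and 7 lower (median 0.30), a balance that turned round to 4 higher and 15 lower with total counts (median -0.29). In the TMM fit the largest changes were those of LST8 (1.69) and PKH1 (-1.36) for TORC2, VAC14 (-0.54) and PIK1 (-0.46) for the phosphoinositide kinases, RAD53 (1.16) and RAD24 (0.76) for the checkpoint, and EAF7 (2.27) and YAF9 (1.94) for SAGA and NuA4, all log2 fold changes past the edgeR threshold.

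**Figure D3:**
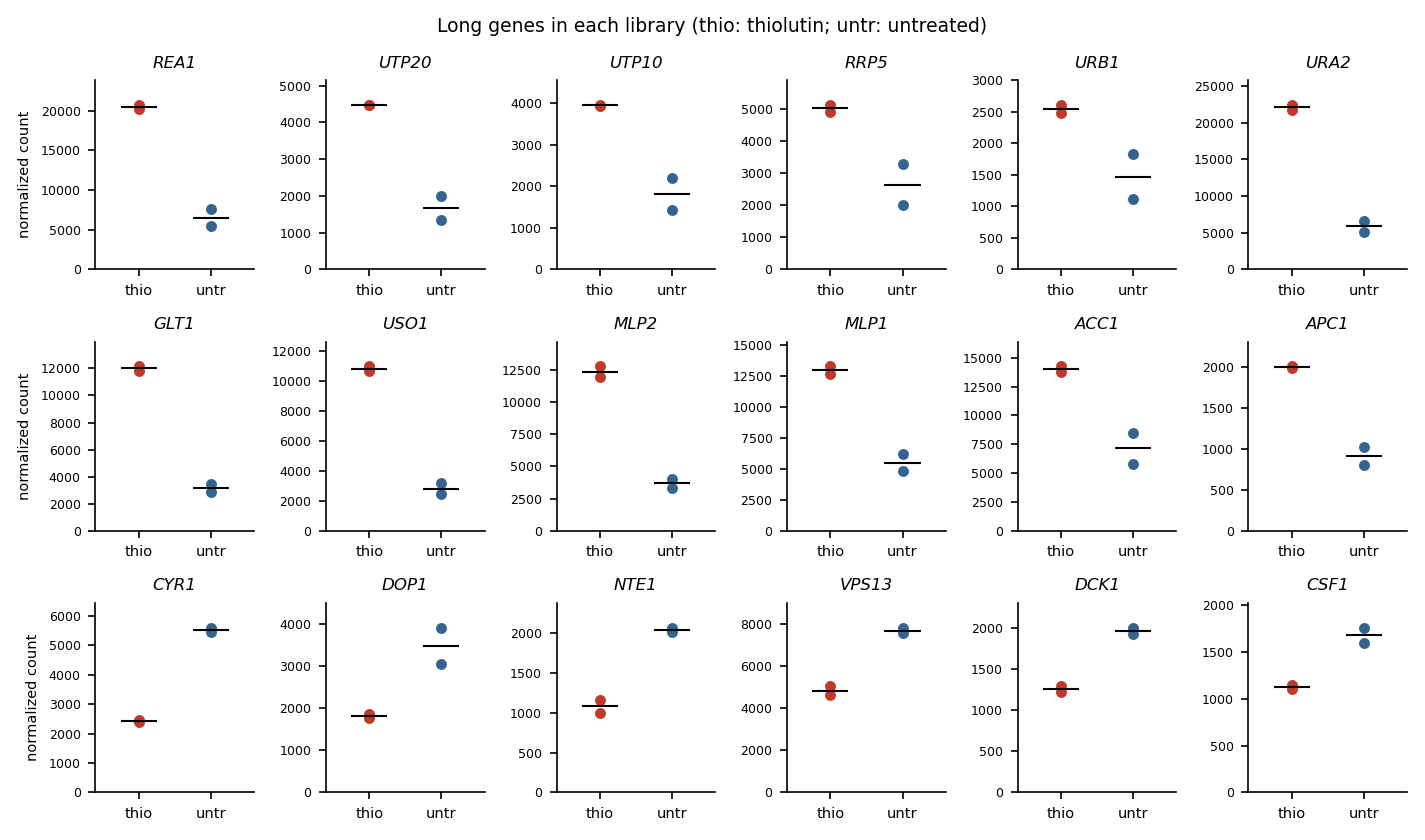
Normalized counts of 18 long genes in each library, 1 panel per gene with its own vertical axis from 0; red points are the 2 thiolutin libraries, blue points the 2 untreated libraries, and black lines the group means. Thiolutin libraries lie above untreated ones in the first 12 panels (REA1 to APC1) and below them in the last 6 (CYR1 to CSF1).

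Few of the long genes of chromatin, transcription and splicing were called with TMM, whereas with total counts 4 of 6 chromatin and transcription genes and 1 of 2 splicing genes were called lower and none higher. Of the 6 in chromatin and transcription only SNF2, the ATPase of the SWI/SNF remodeller, was called with TMM, with 5610 and 5730 normalized counts in thiolutin cells and 4355 and 4715 in untreated cells, a log2 fold change of 0.32 (SE 0.09, edgeR adjusted p 0.0307). CDC39, the scaffold of the Ccr4-Not complex that shortens poly(A) tails, had 3672 and 3908 in thiolutin cells and 4362 and 5586 in untreated cells, a log2 fold change of -0.39 (SE 0.14, edgeR adjusted p 0.0621). POL2, the catalytic subunit of DNA polymerase epsilon, RIF1 of telomeres, MOT1, which removes TBP from DNA, and SEN1, a helicase of transcription termination, were not called, at 0.06 to 0.34.

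In the spliceosome, PRP8, its central scaffold, had 4209 and 4566 normalized counts in thiolutin cells and 3368 and 3680 in untreated cells, a log2 fold change of 0.32 (SE 0.10, edgeR adjusted p 0.0407). BRR2, the helicase that unwinds U4 from U6, had 2266 and 2350 in thiolutin cells and 2008 and 2529 in untreated cells, a log2 fold change of 0.02 (SE 0.13, edgeR adjusted p 0.88). The calls of SNF2 and PRP8 turned to -0.27 each with total counts as the scale and were lost without either thiolutin library (edgeR adjusted p 0.217 to 0.378). Of the shorter partners, 3 of 11 SWI/SNF genes were called higher and 1 lower (median 0.06), 3 of 8 Ccr4-Not genes higher and 3 lower (0.12), 4 of 5 DNA polymerase epsilon and origin genes higher and 1 lower (0.68), and 3 of 12 tri-snRNP genes higher and 3 lower (-0.12). With total counts none was higher and 8 were lower for SWI/SNF (-0.53), 1 and 5 for Ccr4-Not (-0.47), 2 and 1 for DNA polymerase epsilon (0.10) and 1 and 7 for the tri-snRNP (-0.71). LIN1, a protein of the spliceosomal U5 particle, had a log2 fold change of 2.99 (SE 0.10, edgeR adjusted p 7.05e-05). CAF130 (1.10) and CCR4 (-1.07), DPB2 (1.28) and SLD2 (0.95), SWP82 (0.55) and SNF6 (0.51), and DIB1 (-0.79) were the other largest log2 fold changes called in these lists.

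In translation control neither long gene was called with TMM, and GCN1 was called lower with total counts (-0.66, edgeR adjusted p 0.0199). GCN1, which activates the kinase Gcn2 on stalled ribosomes, had 6283 and 6291 normalized counts in thiolutin cells and 5478 and 7703 in untreated cells, a log2 fold change of -0.07 (SE 0.18, edgeR adjusted p 0.755). SLH1, a helicase that splits collided ribosomes, had 2431 and 2650 in thiolutin cells and 1825 and 2173 in untreated cells, a log2 fold change of 0.35 (SE 0.12, edgeR adjusted p 0.0531). Of 15 shorter genes of general amino acid control 6 were called higher and 2 lower (median 0.19), against 2 higher and 7 lower with total counts (median -0.40). SUI3 at 1.65 and GIR2 at 1.63 had the largest log2 fold changes with TMM.

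Of the 6 long genes of ubiquitin transfer and the proteasome, APC1 rose and TOM1 fell, against 1 higher (APC1) and 3 lower with total counts. APC1 (chrXIV:310636-315882, plus strand), the largest subunit of the anaphase-promoting complex, had 1985 and 2010 normalized counts in thiolutin cells and 808 and 1029 in untreated cells, a log2 fold change of 1.12 (SE 0.14, edgeR adjusted p 0.00179). TOM1, a HECT ubiquitin ligase, had 4814 and 4893 in thiolutin cells and 5712 and 6404 in untreated cells, a log2 fold change of -0.32 (SE 0.10, edgeR adjusted p 0.0397), a call lost without either thiolutin library (0.332 and 0.31). BLM10, a proteasome activator, had 4215 and 4447 in thiolutin cells and 3193 and 4238 in untreated cells, which overlapped, at a log2 fold change of 0.22 (SE 0.16, edgeR adjusted p 0.261).

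UBR1 and UBR2, ubiquitin ligases, and ECM29, which binds the proteasome, were not called, at 0.18, -0.07 and 0.05. Of 33 shorter proteasome genes 12 were called higher and 8 lower, with a median of 0.27, against 3 higher, 19 lower and a median of -0.32 with total counts. In the TMM fit RPN8 (1.58) and PRE2 (1.38) had the largest log2 fold changes.

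The 9 long genes of the cytoskeleton and cell polarity had a median of 0.002 with TMM, where DCK1 was the only call, whereas with total counts as the scale all 9 were called lower, with a median of -0.59. DCK1 (chrXII:965897-971695, plus strand), an exchange factor of the DOCK family, had 1224 and 1293 normalized counts in thiolutin cells and 1927 and 2006 in untreated cells, a log2 fold change of -0.64 (SE 0.08, edgeR adjusted p 0.00225), and missed the threshold without thiolutin replicate 1 (edgeR adjusted p 0.0539). BEM2, a GTPase-activating protein of bud emergence, had 5205 and 5359 in thiolutin cells and 4799 and 5663 in untreated cells, a log2 fold change of 0.01 (SE 0.11, edgeR adjusted p 0.92). BNI1, a formin that nucleates actin cables, had 4830 and 4744 in thiolutin cells and 3860 and 4787 in untreated cells, a log2 fold change of 0.15 (SE 0.13, edgeR adjusted p 0.361). The groups overlapped in both.

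The other 6 lay between -0.21 (TAO3) and 0.19 (MYO1, the myosin of the cytokinetic ring), with DYN1, the dynein heavy chain and at 12279 bp the longest of them, at -0.14, NUM1, its cortical anchor, at 0.07, HKR1, a mucin-like osmosensor, at -0.12, and PMD1, a kelch-repeat protein, at 0.002. Repeats within NUM1 and HKR1 left 85.0% and 92.1% of their 100-base windows unique in the genome, against 100% in the other 64 single genes. Of 13 shorter genes of dynein and dynactin 6 were called higher and 3 lower (median 0.23), against 1 and 8 with total counts (median -0.36). Of 15 genes of formins and polarity 4 were higher and 4 lower (median 0.03), against 2 and 11 with total counts (median -0.56). ARP10 (-1.46) and PAC1 (1.31), and BNR1 (1.89) and RGA2 (1.79), had the largest log2 fold changes called.

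RIM15, a protein kinase that acts in entry into quiescence, had 3258 and 3256 normalized counts in thiolutin cells and 2038 and 2404 in untreated cells, a log2 fold change of 0.55 (SE 0.11, edgeR adjusted p 0.00949). CCH1, the plasma membrane calcium channel, had 894 and 881 in thiolutin cells and 497 and 713 in untreated cells, the same log2 fold change of 0.55 with a larger error (SE 0.19, edgeR adjusted p 0.0521). RIM15 stood at -0.04 with total counts as the scale and lost its call without either thiolutin library (edgeR adjusted p 0.091 and 0.0893), while CCH1 passed with the size factors of DESeq2 (edgeR adjusted p 0.0479).

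**Figure D4:**
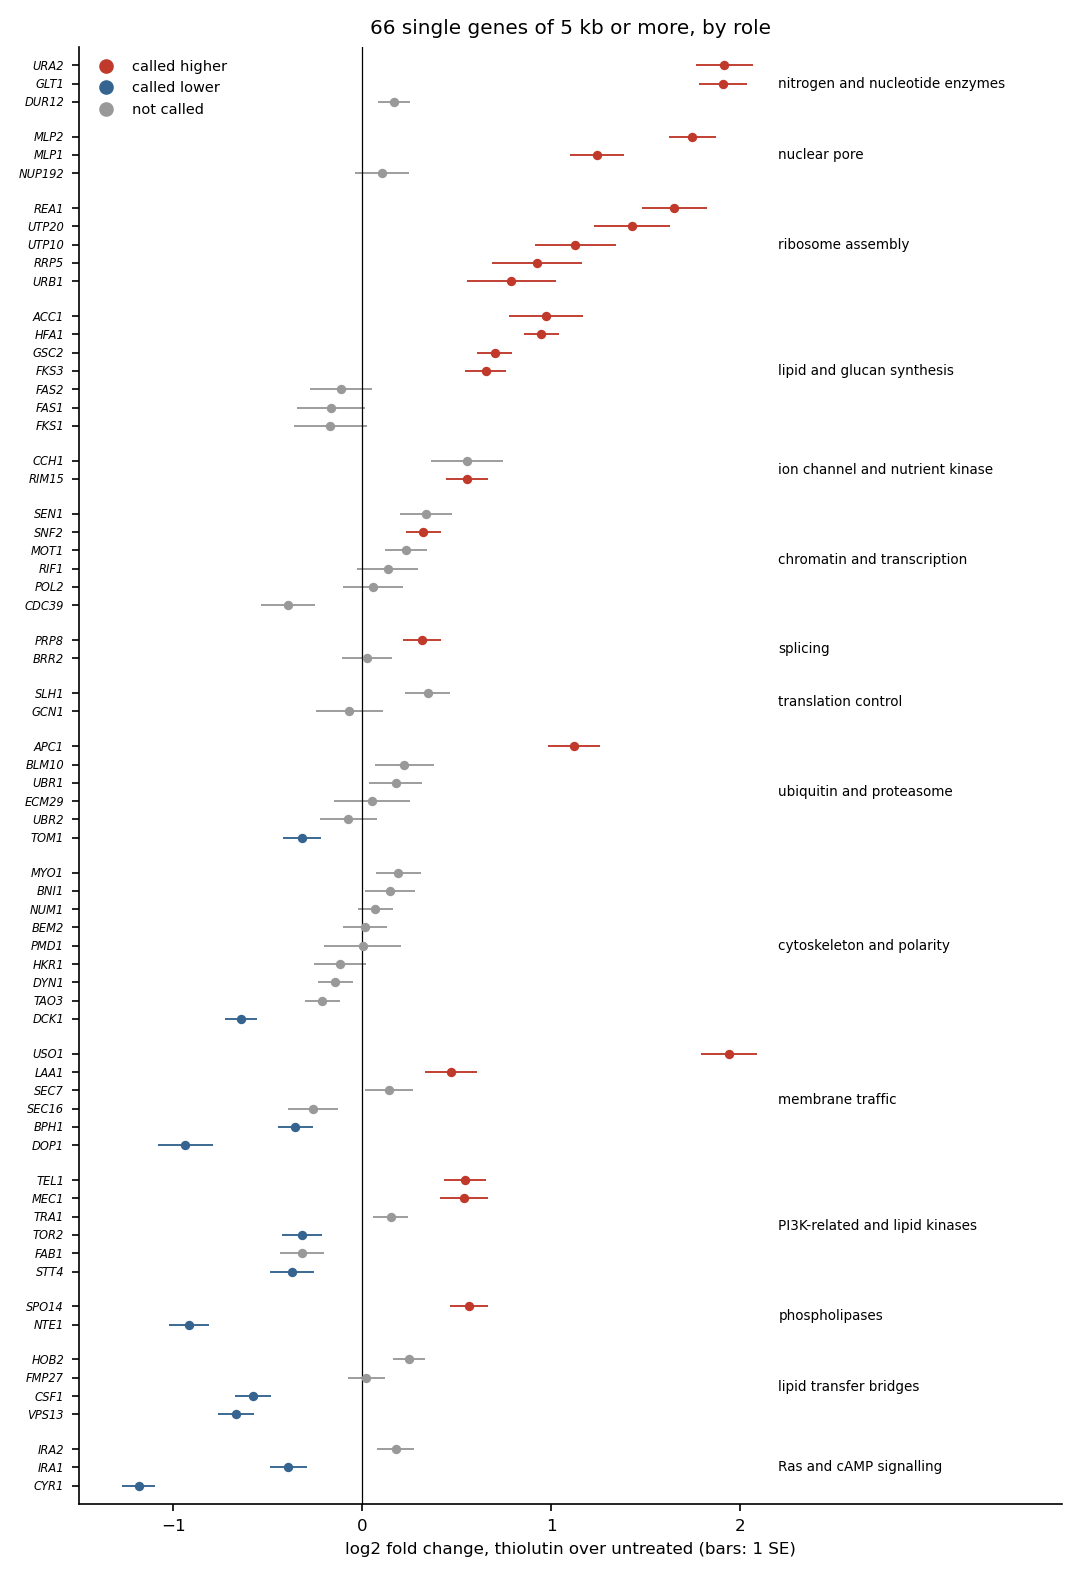
Log2 fold change of thiolutin over untreated cells with 1 SE from the edgeR fit for the 66 single genes of 5 kb or more, grouped by role; red points were called higher, blue lower and grey not called. All 5 ribosome assembly genes lie right of 0, and USO1, URA2 and GLT1 reach 1.91 to 1.94.

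Across the 66 single long genes, the log2 fold change showed little relation to length (Pearson's r -0.07, Spearman's rho -0.19), to GC content (r -0.11, rho -0.09) or to mean level (r 0.27, rho 0.17). These are descriptions across genes, which share the same 4 libraries. The log2 fold change was lower where untreated replicate 1 was high against replicate 2 (r -0.33, rho -0.26), a quantity that enters the fold change itself.

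Of nuclear mRNA reads, the 110 long rows held 1.25% and 1.28% in the thiolutin libraries and 1.14% and 1.41% in the untreated libraries. The groups overlapped (exact two-sided permutation p of 1, the smallest possible being 0.333). Single genes held 0.982% and 1.01% in thiolutin and 1.02% and 1.27% in untreated libraries, whereas Ty1 rows held 0.224% and 0.22% in thiolutin and 0.108% and 0.121% in untreated libraries. Ty2 rows held 0.043% and 0.0435% in thiolutin and 0.0136% and 0.0174% in untreated libraries. The shares of Ty1 and Ty2 were thus higher in both thiolutin libraries (exact permutation p 0.333 for each family). Ty4 rows held 0.000288% and 0.000201% in thiolutin and 0.000424% and 0.000471% in untreated libraries (exact permutation p 0.333). These shares are not scaled by TMM. With TMM the Ty4 sums overlapped, at 93.0 and 64.5 normalized counts in thiolutin and 91.2 and 100.5 in untreated libraries.

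The retrotransposon rows comprise 28 Ty1, 10 Ty2 and 2 Ty4 copies. Ty1 and Ty2 are related elements of the copia type, in which the long terminal repeat drives 1 RNA that serves as genome and as message for the Gag shell and the Pol enzymes. The annotation gives all 40 rows as 2 coding parts with 1 base skipped between them. A ribosome shifts forward by 1 base at the end of gag to enter pol. The heptamer CTTAGGC, known as the Ty1 shift site, lay at the junction in 28 of 28 Ty1, 10 of 10 Ty2 and 1 of 2 Ty4 rows. The other Ty4 row, YPL060C-A, held the heptamer at 1 place away from its annotated junction. Whether the skipped base of that row marks the shift was not tested. At this junction the copies were alike, since the 28 Ty1 rows held only 3 different 30-base windows there and the 10 Ty2 rows only 1. These are shown 5′ to 3′ on the coding strand with the heptamer in capitals, as Ty1 form A in YMR045C (chrXIII:361307-361336, minus strand), Ty1 form B in YML045W (chrXIII:185752-185781, plus strand), Ty2 in YDR034C-D (chrIV:518048-518077, minus strand) and Ty4 in YHL009W-B (chrVIII:86981-87010, plus strand), all from R64.
Ty1 form A: acgaccttcacCTTAGGCcaggaacttact
Ty1 form B: acgaccttcatCTTAGGCcagaaacttact
Ty2: acgaacttagtCTTAGGCcagcaacagaaa
Ty4: caaatagggaaCTTAGGCctgactcgacca

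Forms A and B were each in 13 Ty1 rows. Reads that match several copies cannot be placed, and how the authors treated such reads is not given in the sources used here. Windows of 100 bases found once in the R64 genome made up 0% to 25.1% of Ty1 rows, 0% to 30.3% of Ty2 rows and 3.69% of both Ty4 rows. Values per row are therefore those of the table, and the family sums are the safer measure.

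Summed over copies, Ty1 had 72226.5 and 70653 normalized counts in thiolutin cells and 23159 and 25727 in untreated cells. Ty2 had 13895 and 13980 in thiolutin cells and 2923 and 3714 in untreated cells, and the groups were far apart in both families. In a fit in which the rows of a family were added before testing, a setting added after the data were seen, Ty1 rose by a log2 fold change of 1.55 (SE 0.11, edgeR adjusted p 0.000406) and Ty2 by 2.08 (SE 0.14, edgeR adjusted p 0.000405). Ty4 had 93.0 and 64.5 in thiolutin cells and 91.2 and 100.5 in untreated cells, with a log2 fold change of -0.29 (SE 0.26, edgeR adjusted p 0.363). These sums rest on 49 and 43 Ty4 reads in thiolutin and 128 and 141 in untreated libraries, and their SE is small beside the changes of Ty1 and Ty2.

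By row, all 10 Ty2 copies and 20 of 28 Ty1 copies were called higher, 1 Ty1 copy was called lower and no Ty4 copy was called. The Ty4 row YPL060C-A was called lower with total counts (-1.20, edgeR adjusted p 0.02). So were the Ty1 rows YML045W (-1.23), YDR210C-D (-0.935), YPR158W-B (-0.69) and YML039W (-0.55), with edgeR adjusted p of 0.000788, 0.00373, 0.00751 and 0.0379. The medians were 2.23 for Ty2 and 1.08 for Ty1. Among the 7 Ty1 rows with at least 5% unique windows 6 were called higher, with a median of 1.39, and all 7 such Ty2 rows were called higher, with a median of 2.12. Across the 28 Ty1 rows the log2 fold change had little relation to the unique share (r 0.22, rho 0.04), while rows with more unique sequence had higher counts (r 0.45, rho 0.51). A single Ty1 row, YGR038C-B, with 0.542% unique windows, held 24.8% of the normalized Ty1 reads, and the 5 highest rows held 62.2%.

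Among rows with 100 or more normalized counts on average, the largest increases were in the Ty2 rows YFL002W-A, YDR034C-D and YDR261W-B and in the Ty1 row YMR045C. YFL002W-A (chrVI:138204-143517, plus strand) had 457 and 485 normalized counts in thiolutin cells and 31.4 and 42.8 in untreated cells, a log2 fold change of 3.66 (SE 0.21, edgeR adjusted p 0.000246), with no unique window. YDR034C-D (chrIV:514043-519356, minus strand) had 3344 and 3479 in thiolutin cells and 398 and 470 in untreated cells, a log2 fold change of 2.97 (SE 0.12, edgeR adjusted p 0.000112), with 9.05% unique windows. The groups lay several-fold apart in both rows. Without a unique window the change of YFL002W-A cannot be tied to that copy.

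YDR261W-B (chrIV:981462-986775, plus strand) had 2287 and 2157 normalized counts in thiolutin cells and 341 and 433 in untreated cells, a log2 fold change of 2.52 (SE 0.14, edgeR adjusted p 0.000247). YMR045C (chrXIII:357359-362627, minus strand), with 16.8% unique windows, had 7058 and 7235 in thiolutin cells and 1048 and 1456 in untreated cells, a log2 fold change of 2.51 (SE 0.18, edgeR adjusted p 0.000418). The next were YJR029W, YDR210W-B, YGR027W-B and YNL284C-B, with log2 fold changes of 2.29 to 2.35. YJR029W had 911 and 987 in thiolutin cells and 179 and 194 in untreated cells, and YDR210W-B had 545 and 576 in thiolutin cells and 104 and 118 in untreated cells. YGR027W-B had 6202 and 6235 in thiolutin cells and 1211 and 1256 in untreated cells, and YNL284C-B had 2977 and 3113 in thiolutin cells and 589 and 653 in untreated cells. Thiolutin libraries were about level with each other in all 8 rows.

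Below that count, YGR161W-B, a Ty2 row, had 167 and 152 normalized counts in thiolutin cells and 10.7 and 12.8 in untreated cells, a log2 fold change of 3.74 (SE 0.25, edgeR adjusted p 0.000371). The row chosen by its share of Ty1 reads, YGR038C-B (chrVII:562199-567467, minus strand), had 20302 and 18663 in thiolutin cells and 4066 and 4583 in untreated cells, a log2 fold change of 2.17 (SE 0.11, edgeR adjusted p 0.000201). The only transposon row called lower was YML045W (chrXIII:184461-189729, plus strand), with 190 and 194 in thiolutin cells and 301 and 298 in untreated cells. The Ty1 rows YDR210C-D, with 8.76% unique windows, and YPR158W-B also lay below 0, at -0.35 and -0.10, and were not called. YML045W fell by 0.64 on the log2 scale (SE 0.14, edgeR adjusted p 0.0122), with 0.6% unique windows, and lost its call without either thiolutin library (0.124 and 0.119).

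**Figure D5:**
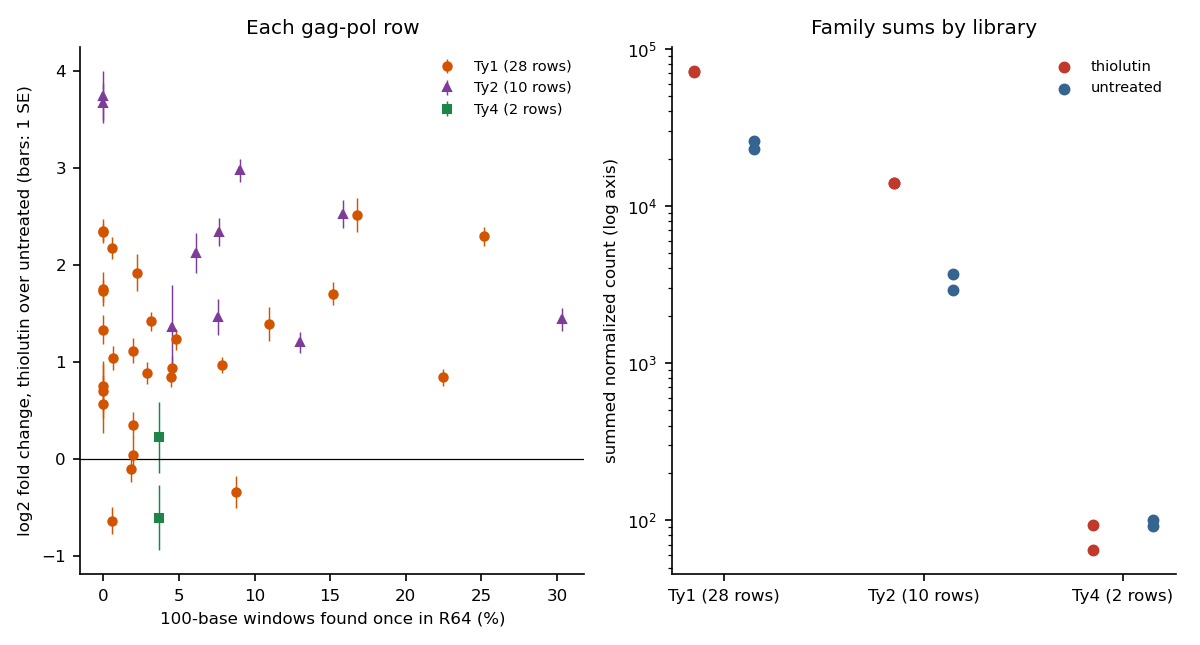
Left, log2 fold change with 1 SE of each transposon gag-pol row against the percent of its 100-base windows found once in R64; orange circles are Ty1, purple triangles Ty2 and green squares Ty4. Right, normalized counts summed by family on a log axis, with red points for thiolutin and blue for untreated libraries; Ty1 and Ty2 sums are higher in both thiolutin libraries, and Ty4 sums stay near 100.

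The Y' helicase rows had few reads, 32 and 35 in all in the thiolutin and 146 and 194 in the untreated libraries. Y' elements are repeats next to the chromosome ends, and at most 3.86% of the windows of these rows were unique. YRF1-1 (chrIV:1526321-1531711, plus strand) had 11.4 and 13.5 normalized counts in thiolutin cells and 59.2 and 81.2 in untreated cells, a log2 fold change of -2.47 (SE 0.36, edgeR adjusted p 0.00321). YRF1-8 (-0.98, SE 0.58) and YRF1-2 (0.09, SE 0.33) were not called.

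At the length limit, the 3 shortest single genes inside were MLP2 and NTE1 (5040 bp each) and NUP192 (5052 bp), with log2 fold changes of 1.75, -0.91 and 0.11. The 3 longest outside were RPA190 (4995 bp), the largest subunit of RNA polymerase I, YBT1 (4986 bp), a vacuolar transporter gene, and GCN2 (4980 bp), the kinase gene of general amino acid control, with 0.89, -0.26 and -0.43.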

How the data were processed

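RNA of 2 thiolutin and 2 untreated cultures, grouped by GEO's labels, was analysed. The authors deposited 1 table of all genes with raw read counts per gene and library, and the submitters' processing notes name DESeq2 and the R64 build. The aligner, counter, strand setting and handling of reads with several matches were not given in the sources used here. Normalized values, fold changes and p-values that the table also holds from the authors' own comparison were not used, and 3 emptied rows and 2 rows of member length are not reported here.

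Counts of all genes were fitted at once with edgeR 4.0.16 in R 4.3.3 (TMM, the filterByExpr minimum, quasi-likelihood test, 1 term for treatment, Benjamini-Hochberg adjustment over all 5937 genes tested), after the steps had been tested on simulated data. p-values rest on the spread between cultures of the same group, pooled over both groups and drawn towards that of other genes. Each SE is the size of the log2 fold change divided by the square root of the test's F statistic. DESeq2 1.42.0 was an alternative, as were its size factors, total counts, no filter, a replicate block, other thresholds and lengths, and leaving out each library in turn. Plots were drawn with matplotlib 3.10.9 under Python 3.11.15, and tables were made with pandas 2.3.3 and numpy 2.4.6.

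The members and the lists of genes were chosen with earlier results of these data known, so the lists carry counts and medians only. Named members were the 8 largest increases and 8 largest decreases among called members without overlap of the groups and with a mean normalized count of at least 100, up to 2 members of each role with the highest mean count, paralogs of which both are members, and the 3 genes on each side of the length limit. UTP20, UTP10, URB1, APC1, STT4, BPH1, LAA1, YGR038C-B, YGR161W-B and YRF1-1, and the members given by their log2 fold change alone, were named after their values were seen. Of the 21 lists of shorter partner genes all symbols matched a row, and for each list up to 2 called genes with the largest change could be named, of which 1 is not reported here. Promoters and frameshift windows were read from the RefSeq R64 genome. A window of 100 bases was called unique where it matched the genome once on either strand.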

Additional observations from a re-analysis of the deposited data

How the results depend on the processing

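With total counts as the scale 34 long rows were called higher and 45 lower, with a median log2 fold change of -0.24, while the distance of this median to that of the other nuclear mRNA rows stayed at 0.41 on the log2 scale. At an adjusted p under 0.01 (edgeR) 7 long rows were lower, and 1544 of all genes, 34 long rows upward and 2 downward passed when a log2 fold change of 1 or more was also required. A length of at least 4000 bp gave 87 higher, 44 lower, a median of 0.15, a distance of 0.21 and a read share difference of -0.318 percentage points, and one of at least 6000 bp gave 10 higher, 7 lower, a median of 0.063 and a distance of 0.12. Without transposon and Y' rows 22 were higher, the median was 0.15, the distance 0.21 and the share difference -0.148. Transposon rows summed by family, a setting chosen after seeing the data, gave 25 higher and a median of 0.15, and R64 spans, chosen likewise, gave 52 higher and 17 lower.

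Leaving out 1 library at a time gave 2062 to 5009 changed genes in all, 40 to 81 long rows higher, 4 to 30 lower, a median of 0.28 to 0.56 and a distance of 0.32 to 0.61. Named genes lost calls without a thiolutin library, where the untreated pair sets the spread, and none lost its call without an untreated one.

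Of named genes, total counts turned BEM2 to -0.58, BLM10 to -0.37, BNI1 to -0.44, BRR2 to -0.56, CCH1 to -0.037, FMP27 to -0.57, HOB2 to -0.34, IRA2 to -0.41, LAA1 to -0.12, MEC1 to -0.053, PRP8 to -0.27, RIM15 to -0.037, SEC7 to -0.45, SLH1 to -0.24, SNF2 to -0.27, SPO14 to -0.025, TEL1 to -0.047 and TRA1 to -0.44. With 1 library left out BEM2 ran from -0.091 to 0.14, BRR2 from -0.12 to 0.21, FAS1 from -0.38 to 0.11, FAS2 from -0.31 to 0.13, FKS1 from -0.41 to 0.14, FMP27 from -0.035 to 0.10 and GCN1 from -0.28 to 0.20. The size factors and the Wald test of DESeq2 each lost STT4, TOM1 and TOR2, and the Wald test also BPH1.

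With a replicate block 54 long rows were higher and 12 lower, and 3857 genes changed in all. PRP8, SNF2, TOM1 and TOR2 lost and CCH1, CDC39 and SLH1 gained a call. Deviations of libraries with the same number correlated at 0.02 across genes, so the numbers were read as names only. The values of Ty4 and of the Y' helicases rest on few reads.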

Other observations

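Transposon rows shorter than 5000 bp add a further family. Both Ty3 rows, of the gypsy type, were called higher by edgeR, YGR109W-B with 1573 and 1592 normalized counts in thiolutin cells and 1254 and 1235 in untreated cells (log2 fold change 0.35, adjusted p 0.0155), and YIL082W-A with 4025 and 3926 in thiolutin cells and 2778 and 2759 in untreated cells (log2 fold change 0.52, adjusted p 0.00454). With total counts as the scale the median of all genes lies 0.59 lower, which is more than either change. The Ty1 rows YDR261C-D (4816 bp) and YAR009C (3591 bp) had edgeR log2 fold changes of 1.65 and 1.18 (adjusted p 0.000376 and 0.000797). The Ty1 rows YLR256W-A and YAR010C, both of 1323 bp, were not called, with -0.09 and 0.23 (edgeR adjusted p 0.509 and 0.625). Of the rows with no family given, YDR170W-A and YLR035C-A were called higher (0.57 each, edgeR adjusted p 0.00718 and 0.0449), and the short Ty4 row YJL114W was not called (-0.38, edgeR adjusted p 0.406). The Ty4 row YJL113W (4648 bp), with more reads than the long Ty4 rows, had 366 and 375 normalized counts in thiolutin cells and 310.0 and 315 in untreated cells, and was not called (log2 fold change 0.25, edgeR adjusted p 0.135).

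Of the subtelomeric rows that R64 spans at more than 5000 bp but that are listed at a shorter length, YRF1-6 and YRF1-3 were called lower by edgeR with log2 fold changes of -1.69 and -1.39 (adjusted p 0.00955 and 0.0204), as were YIL177C and YJL225C with -1.09 and -0.58 (adjusted p 0.0447 and 0.0368). YRF1-6 and YRF1-3 are listed at 19 bp each. They had 6 and 11, and 9 and 9, reads in the thiolutin libraries, against 67 and 62, and 62 and 50, in the untreated ones. How much of these rows is unique in the genome was not measured. YRF1-7 was not called (-1.10, adjusted p 0.0627, edgeR).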
